A study of Rattus norvegicus with 66 samples.

Results

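Expression of 9 genes of the glucocorticoid receptor system was followed in the dorsal hippocampus of Long Evans rat pups on postnatal day 6. The genes were taken from the count tables by symbol, and each of the 9, out of 37777 listed genes, had 1 entry. They comprised the glucocorticoid receptor Nr3c1 (gene32931) and the mineralocorticoid receptor Nr3c2 (gene33987), the receptor targets Fkbp5 (gene34932), Sgk1 (gene255) and Tsc22d3 (gene36669), the enzyme Hsd11b1 (gene27672), and the peptide system of Crh (gene5553), Crhr1 (gene23996) and Crhbp (gene4942). The symbols are those of the rat gene map deposited with the counts, for genome build Rnor_6.0.

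RNA-seq was performed on 64 pups (41 males and 23 females, 44 litters) in 13 groups. In the chow groups, dams ate soy-free chow from before mating until postnatal day 6, either plain (feeding controls, CONF, 4 males and 5 females) or with the polychlorinated biphenyl mixture Aroclor 1254 at 0.5 mg/kg (Aro0.5, 4 males) or 5 mg/kg (Aro5, 6 males and 5 females) or with bisphenol A at 0.5 mg/kg (BPA0.5, 4 males) or 5 mg/kg (BPA5, 7 males and 4 females). In the injection groups, dams were injected subcutaneously during gestation and again after birth with vehicle (CONSC, 5 males and 5 females) or with the organophosphate chlorpyrifos at 1 mg/kg (CPF1, 4 males) or 3 mg/kg (CPF3, 7 males and 4 females). The vehicle is called saline in the sample labels and dimethyl sulfoxide in the study's methods. Route, handling of the dam and chemical cannot be told apart among the treated groups, since chlorpyrifos was given only by injection and the other chemicals only in chow. Pups were exposed through the dam, and 18 litters gave pups of both sexes, so that pups of a litter are not independent.

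Corticosterone reaches the brain from the adrenal gland and acts through the mineralocorticoid receptor, which has the higher affinity and is abundant in the hippocampus, and the glucocorticoid receptor, which is occupied when the hormone rises. The unliganded glucocorticoid receptor is held in the cytoplasm by Hsp90 and co-chaperones, among them the Fkbp5 product, which lowers its hormone binding and is itself induced by the receptor. The hormone is regenerated from its inert keto form within cells by the Hsd11b1 product, and corticotropin-releasing hormone, encoded by Crh, drives its release through the pituitary and also acts on local neurons through the Crhr1 product. In the first postnatal weeks, the rat adrenal responds only weakly to stress.

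The 66 libraries held 10644138 to 86206550 counts each (median 20740650), and the 2 libraries of each of 2 CONF pups were added. Expression is given as CPM, the counts of a gene per 1000000 counts of the pup. The tissue contained the dorsal hippocampus of both sides with a small piece of lateral neocortex. Hippocampal markers such as Prox1 were detected in every pup, but summed CPM of marker lists differed widely, from 336 to 704 for hippocampal neurons, from 81.1 to 756 for neocortex, from 81.2 to 1237 for thalamus and from 759 to 4532 for choroid plexus. Female CONSC pup 9-1x stood apart, with the lowest neocortex sum of all pups and the highest sums for interneurons (619) and choroid plexus. In such bulk samples, fewer cells of a type and less RNA per cell cannot be told apart. Male library names ended in a capital Y, in all low-dose and all but 1 of the control libraries, or in a lower-case y, in all high-dose libraries. Name spelling and high dose thus cannot be told apart in treated males, and high-dose males differed in spelling from nearly all of their controls. What the spelling stands for is not stated.

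Start-site windows of RefSeq (build GRCr8, 250 bases before to 50 bases after the start, 33469 windows) were found for 6 of the 9 genes, and windows of the 3 receptor targets are shown because their levels were related across pups. The capitals mark a GC box (GGGCGG on either strand) or a TATA box (TATAAA on either strand).
Fkbp5, chr20:6543506-6543805, minus strand: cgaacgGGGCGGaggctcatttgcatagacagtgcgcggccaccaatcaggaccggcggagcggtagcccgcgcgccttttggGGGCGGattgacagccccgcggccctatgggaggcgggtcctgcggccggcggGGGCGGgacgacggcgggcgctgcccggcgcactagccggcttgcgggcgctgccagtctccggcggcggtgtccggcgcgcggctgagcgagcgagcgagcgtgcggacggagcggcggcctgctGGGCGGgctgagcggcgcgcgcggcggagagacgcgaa
Sgk1, chr1:24804782-24805081, minus strand: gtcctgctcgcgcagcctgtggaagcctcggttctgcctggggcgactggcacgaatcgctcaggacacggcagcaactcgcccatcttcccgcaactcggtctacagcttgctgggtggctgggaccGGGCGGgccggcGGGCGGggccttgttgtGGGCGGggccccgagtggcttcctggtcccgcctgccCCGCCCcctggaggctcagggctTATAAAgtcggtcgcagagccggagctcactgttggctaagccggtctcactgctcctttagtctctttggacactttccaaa
Tsc22d3, chrX:109009985-109010284, minus strand: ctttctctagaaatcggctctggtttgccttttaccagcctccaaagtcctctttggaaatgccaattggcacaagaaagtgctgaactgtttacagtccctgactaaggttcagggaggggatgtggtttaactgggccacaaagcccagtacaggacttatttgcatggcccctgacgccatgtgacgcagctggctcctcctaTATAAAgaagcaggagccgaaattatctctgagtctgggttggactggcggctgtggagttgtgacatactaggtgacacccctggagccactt
The Fkbp5 window, the only one listed for this gene, held 4 GC boxes and no TATA box. The Sgk1 window held 4 GC boxes and 1 TATA box, and the Tsc22d3 window held 1 TATA box and no GC box. Sgk1 and Tsc22d3 have 3 windows each, and a GC box was in 2 of 3 for either gene. Over all windows of the build, 33.1% held a GC box and 14.2% a TATA box. None of the 12 windows of Nr3c1, Fkbp5, Sgk1, Tsc22d3, Crhr1 and Crhbp held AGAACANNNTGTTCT, a palindrome bound by the glucocorticoid receptor, or its first 6 letters AGAACA on either strand, letters that 0.0149% and 20.7% of all windows held. These matches describe the letters in the windows and locate no binding site.

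The group means of both receptors lay close together. Nr3c1 had a group mean between 35.9 ± 2.63 CPM in Aro0.5 males (SD, n = 4) and 49.1 ± 13.0 CPM in Aro5 males (SD, n = 6), a ratio of 1.37. Nr3c2 lay between 23.0 ± 2.72 CPM in CPF3 females (SD, n = 4) and 30.0 ± 6.91 CPM in Aro0.5 males (SD, n = 4), a ratio of 1.3. With the 13 groups placed in order of their means, all 12 steps from group to group were smaller than the SD of either neighbour, for each receptor. Steps between neighbours are small largely because the means were sorted. Here and for the genes below, they describe the order and do not compare groups farther apart. Single pups ranged more widely than group means, from 25.8 to 69.4 CPM for Nr3c1 and from 12.7 to 48.2 CPM for Nr3c2.

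**Figure D1:**
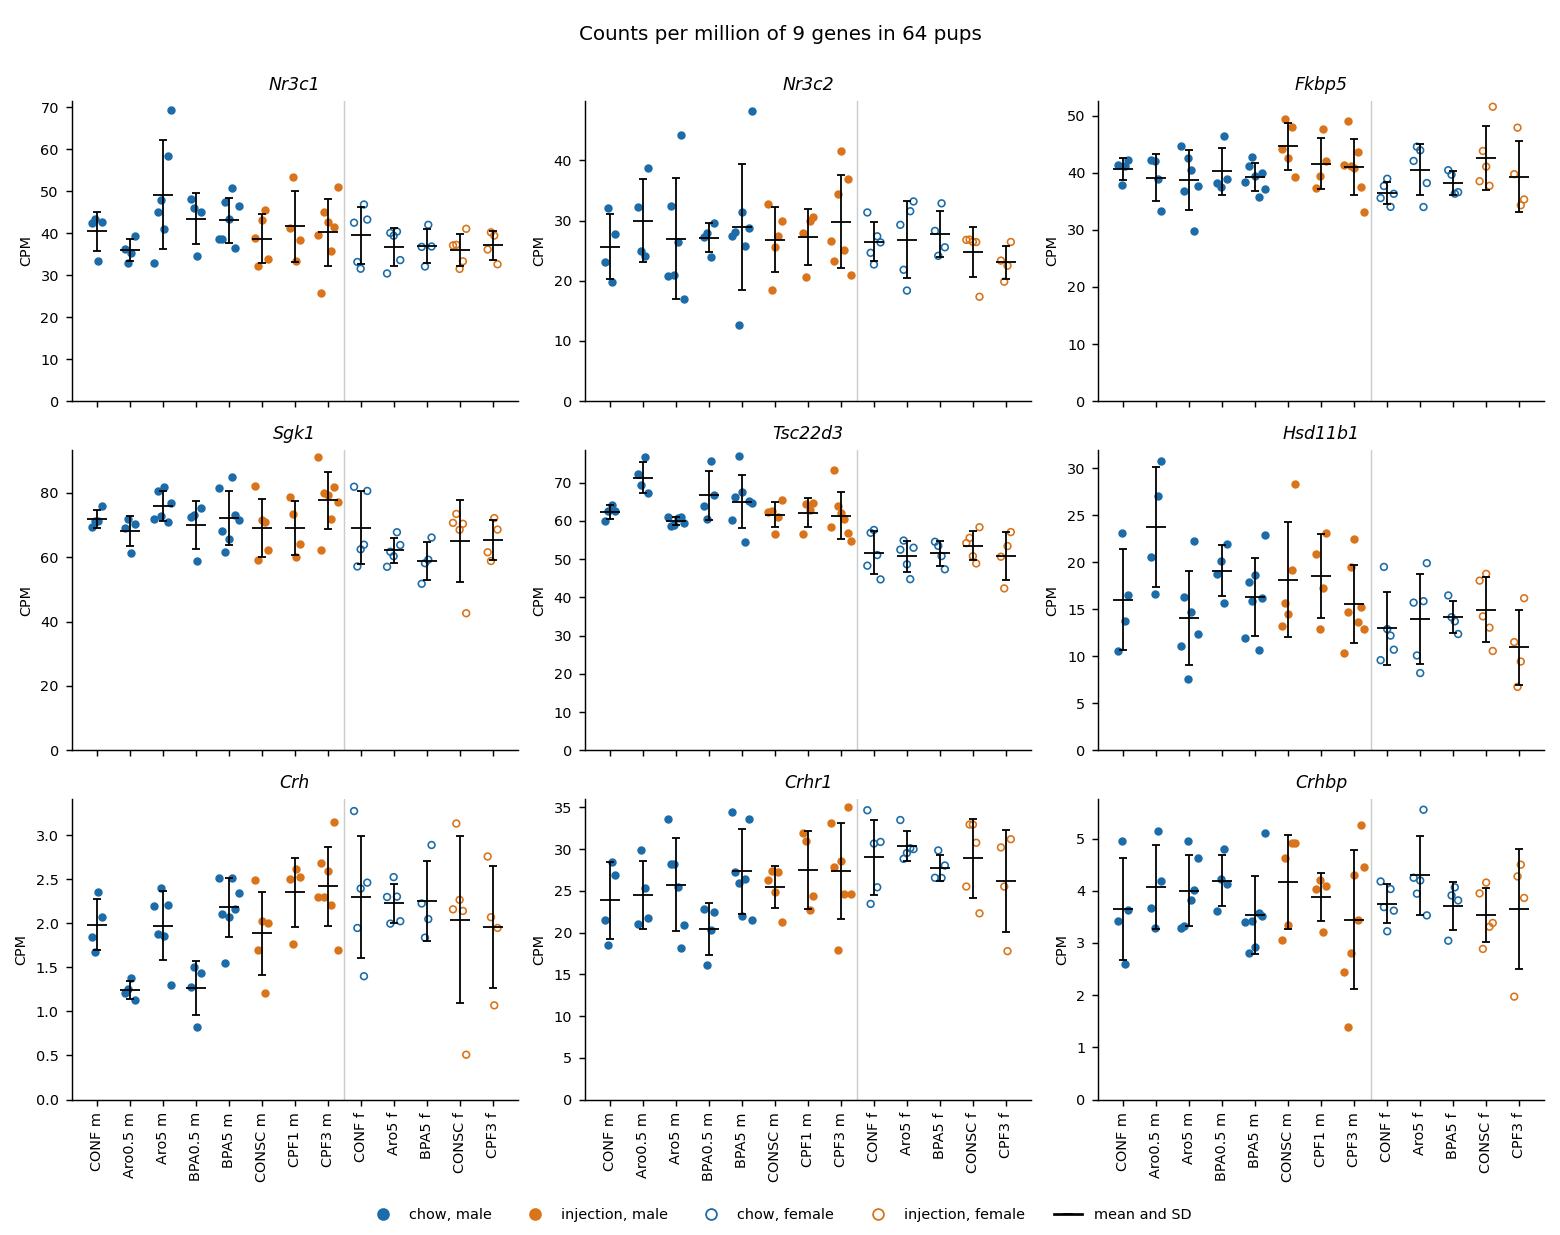
CPM of the 9 genes in each of 64 pups by group, with chow groups in blue, injection groups in orange, males filled and females open, and bars for the group mean and SD. The points of most groups overlap, Tsc22d3 is lower in every female group than in any male group by its mean, and Crh is low in Aro0.5 and BPA0.5 males.

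Among the receptor targets, Fkbp5 had the narrowest spread, from 36.5 ± 1.90 CPM in CONF females (SD, n = 5) to 44.7 ± 4.13 CPM in CONSC males (SD, n = 5), and all 12 steps in its order were smaller than the SD of either neighbour, as they were for Sgk1. Sgk1, a kinase induced by both corticosteroid receptors that regulates ion channels, lay between 58.8 ± 5.88 CPM in BPA5 females (SD, n = 4) and 77.6 ± 8.83 CPM in CPF3 males (SD, n = 7). Tsc22d3, the glucocorticoid-induced leucine zipper, lay between 50.7 ± 4.04 CPM in Aro5 females (SD, n = 5) and 71.3 ± 4.06 CPM in Aro0.5 males (SD, n = 4). The order of Tsc22d3 ran along with sex, in that all 5 female group means lay below all 8 male group means, and 8 of its 12 steps were smaller than the SD of either neighbour.

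Hsd11b1 varied most between groups, from 11.0 ± 3.98 CPM in CPF3 females (SD, n = 4) to 23.7 ± 6.36 CPM in Aro0.5 males (SD, n = 4), a ratio of 2.16. Crh had 12 to 168 counts per pup, and its group means lay between 1.24 ± 0.105 CPM in Aro0.5 males (SD, n = 4) and 2.42 ± 0.450 CPM in CPF3 males (SD, n = 7), a ratio of 1.95. Crhr1, the receptor for the peptide, lay between 20.4 ± 3.06 CPM in BPA0.5 males (SD, n = 4) and 30.4 ± 1.80 CPM in Aro5 females (SD, n = 5). Crhbp, whose product binds the peptide and limits its action, lay between 3.44 ± 1.33 CPM in CPF3 males (SD, n = 7) and 4.29 ± 0.759 CPM in Aro5 females (SD, n = 5). For Hsd11b1, Crh and Crhr1, 11 of 12 steps were smaller than the SD of either neighbour, and for Crhbp all 12 were.

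The first comparison asked whether injection of the dam left a mark on these genes. None of the 9 had an adjusted p under 0.05 in CONSC against CONF, in edgeR (quasi-likelihood test, p adjusted over all genes tested after Benjamini and Hochberg), where 0.013% of 15387 genes were called in males and 0% of 16618 in females. An unadjusted p under 0.05 was found for 0.988% of genes in males and 4.29% in females, among them Fkbp5 in females.

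Fkbp5 in CONF females was at 34.0, 35.6, 36.3, 37.7 and 38.9 CPM, and in CONSC females at 37.7, 38.5, 41.1, 43.8 and 51.6 CPM. The injection controls lay higher, but the groups overlapped between 37.7 and 38.9 CPM. The log2 difference was 0.21 ± 0.09 (SE, 95% interval 0.05 to 0.38, edgeR adjusted p = 0.85). The highest value was that of pup 9-1x, and without this pup the log2 difference was 0.14 ± 0.07 (SE, edgeR adjusted p = 0.969). In males, CONF pups were at 37.8, 41.1, 41.4 and 42.2 CPM and CONSC pups at 39.2, 42.5, 44.1, 48.0 and 49.4 CPM, a log2 difference of 0.13 ± 0.08 (SE, edgeR adjusted p = 1) in overlapping groups. The other 8 members differed between the controls by -0.08 (Nr3c1) to 0.18 (Hsd11b1) in males and by -0.17 (Crh) to 0.20 (Hsd11b1) in females on the log2 scale.

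Over all treatments, the 3 injection groups of males were set against the 5 chow groups, and CONSC and CPF3 females against CONF, Aro5 and BPA5 females. None of the 9 genes was called in males (0.023% of 17367 genes), in females (0%), in the mean of the sexes (0.0288%) or in the difference between the sexes (0.00576%). Unadjusted p-values under 0.05 were found for 5.87%, 8.78%, 11.6% and 3.97% of genes, and among the 9 for Tsc22d3 and Crh in males, Fkbp5 in the mean and Crh in the difference. Fkbp5 had a median of 41.7 CPM in 16 injection males (33.2 to 49.4 CPM) against 39.4 CPM in 25 chow males (29.8 to 46.3 CPM). In females the medians were 39.7 CPM over 9 injection pups (34.3 to 51.6 CPM) and 37.9 CPM over 14 chow pups (34.0 to 44.6 CPM). The ranges overlapped in both sexes, and the mean log2 difference over the sexes was 0.08 ± 0.04 (SE, 95% interval 0.01 to 0.16, edgeR adjusted p = 0.407).

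Crh showed the widest difference between the routes in males. Its median was 2.30 CPM in injection males (1.21 to 3.15 CPM) and 1.85 CPM in chow males (0.823 to 2.51 CPM), a log2 difference of 0.37 ± 0.13 (SE, 95% interval 0.11 to 0.63, edgeR adjusted p = 0.82). The lowest chow values came from Aro0.5 and BPA0.5 pups, while CONSC males did not lie above CONF males (1.89 ± 0.474 CPM, SD, n = 5, against 1.99 ± 0.293 CPM, SD, n = 4). In females, the median was 2.14 CPM in injection and 2.26 CPM in chow pups, with a log2 difference of -0.18 ± 0.17 (SE, edgeR adjusted p = 0.789). The female minus the male route difference was -0.56 ± 0.21 on the log2 scale (SE, 95% interval -0.97 to -0.14, edgeR adjusted p = 0.999), which did not pass the threshold. Tsc22d3 was at a median of 62.3 CPM in injection males and 63.8 CPM in chow males, a log2 difference of -0.10 ± 0.04 (SE, edgeR adjusted p = 0.82). In male libraries named with a capital Y the route difference was -0.14 for Tsc22d3 and 0.48 for Crh. Among lower-case y libraries, taken without controls, CPF3 against Aro5 and BPA5 gave -0.02 and 0.23, where route and chemical cannot be told apart. Between the controls in the fit of all pups the route difference was -0.03 and -0.06. None of these had an adjusted p under 0.05. The other 7 members differed between the routes by -0.09 (Nr3c1) to 0.12 (Crhr1) in males on the log2 scale. For each of the 9 genes the ranges of the routes overlapped in either sex, as they did for all 14702 genes with a mean of at least 1 CPM.

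The second comparison asked whether the chemicals changed these genes in males at the high doses. Against the 9 male controls, CONF and CONSC combined, none of the 9 genes was called in Aro5 (0.195% of 16393 genes), BPA5 (0.189%) or CPF3 males (0.159%). An unadjusted p under 0.05 was found for 11.8%, 9.1% and 12.6% of genes and, of the 9, for Nr3c1 in Aro5 and for Sgk1 and Crh in CPF3 males. All high-dose libraries but only 1 control library, of CONF male N2-2y, had the lower-case y. High dose and name spelling thus nearly coincide here. With spelling as a covariate, which rests on that library, the log2 differences were 0.40 for Nr3c1 in Aro5 and 0.19 for Sgk1 and 0.58 for Crh in CPF3 males.

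Nr3c1 in the 6 Aro5 males was lowest at 33.0 CPM, had a median of 46.5 CPM and was highest at 69.4 CPM, against 32.1 to 45.5 CPM with a median of 42.3 CPM in the 9 controls. The 2 highest, at 58.4 and 69.4 CPM, were pups of 1 litter, and the lowest Aro5 male lay within the control range, so that the groups overlapped. The log2 difference was 0.33 ± 0.13 (SE, 95% interval 0.08 to 0.59, edgeR adjusted p = 0.299), and without the highest pup, 120-2y, it was 0.21 ± 0.12 (SE, edgeR adjusted p = 0.568). Without the lowest Aro5 male, 108-1y, it was 0.42 ± 0.13 (SE, edgeR adjusted p = 0.0754). A window of dissection from 10.30 h to 13.20 h left out the 2 lowest Aro5 males (33.0 and 41.0 CPM) and the 3 highest CONSC males. Of the 4 Aro5 males kept, 2 were the pups of 1 litter, counted as separate pups. Within this window the log2 difference was 0.56 with an adjusted p of 0.0386 by edgeR's test. It was the only 1 of 36 alternatives to pass (adjusted p 0.0386 to 1). With 1 pup per litter and sex, over all times, the pup left out was again 120-2y. This was thus the same fit as that without the highest pup (0.21, edgeR adjusted p = 0.568), and it stands among the 36 under both names.

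In CPF3 males, Sgk1 had a median of 79.3 CPM (62.3 to 90.9 CPM, n = 7) against a median of 71.1 CPM (59.0 to 82.1 CPM) in the 9 controls. The groups overlapped, with 6 of 7 CPF3 males above the control median, and the log2 difference was 0.15 ± 0.07 (SE, 95% interval 0.01 to 0.29, edgeR adjusted p = 0.387). Crh had a median of 2.30 CPM in these pups (1.70 to 3.15 CPM) and a log2 difference from the controls of 0.33 ± 0.15 (SE, 95% interval 0.04 to 0.61, edgeR adjusted p = 0.373). The other members differed from controls by -0.26 to 0.19 on the log2 scale over the 3 treatments, with Hsd11b1 in Aro5 at the low end (-0.26 ± 0.22, SE) and Nr3c2 in CPF3 at the high end (0.19 ± 0.20, SE). In Aro5 males the neocortex markers summed to 394 to 639 CPM, with a median of 495 CPM, and in CPF3 males to 302 to 756 CPM, with a median of 421 CPM. They summed to 257 to 376 CPM in CONF (median 331 CPM) and 205 to 510 CPM in CONSC males (median 271 CPM). At an unadjusted p under 0.05, 4 of 5 neocortex markers were higher in Aro5, 2 of 5 in BPA5 and 3 of 5 in CPF3 males, and 0 were lower. Of 5 microglia markers, 0, 0 and 3 were lower and 0 higher. The shares of all genes with such a p, in either direction, were 11.8%, 9.1% and 12.6%. No such marker passed adjustment. The part of these markers in these results was not tested.

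The third comparison covered the low doses, studied in males only. None of the 9 genes was called in Aro0.5 (0.124% of 16139 genes), BPA0.5 (0.0434%) or CPF1 males (0%). Unadjusted p-values under 0.05 were found for 18.5%, 8.58% and 2% of genes, and for 3, 2 and none of the 9. Those were Tsc22d3, Hsd11b1 and Crh in Aro0.5 and Tsc22d3 and Crh in BPA0.5 males. The other 6 members differed from the controls in Aro0.5 males by -0.07 (Nr3c1) to 0.26 (Nr3c2) on the log2 scale. In BPA0.5 males the other 7 differed by -0.24 (Crhr1) to 0.20 (Hsd11b1), and in CPF1 males all 9 differed by -0.03 (Fkbp5) to 0.28 (Crh).

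Tsc22d3 in the 4 Aro0.5 males was at 67.2, 69.4, 72.2 and 76.6 CPM, and in the 9 controls at 56.5 to 65.4 CPM with a median of 62.5 CPM. All 4 lay above all controls, a separation that 1.58% of 14702 genes showed in this comparison. The log2 difference was 0.27 ± 0.06 (SE, 95% interval 0.15 to 0.39, edgeR adjusted p = 0.0937), which missed the threshold. DESeq2 gave an adjusted p of 0.00712, and edgeR gave 0.027 without CONSC male 8-4y and 0.0375 without BPA0.5 male 73-4y, while over all 28 alternatives the adjusted p ranged from 0.00712 to 0.445. In BPA0.5 males Tsc22d3 was at 60.5, 63.8, 66.8 and 75.6 CPM, overlapping the controls, with a log2 difference of 0.14 ± 0.06 (SE, edgeR adjusted p = 0.557).

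Hsd11b1 was at 16.6, 20.6, 27.0 and 30.8 CPM in Aro0.5 males, against 10.5 to 28.3 CPM in the controls. The groups overlapped, and the log2 difference was 0.55 ± 0.21 (SE, 95% interval 0.15 to 0.96, edgeR adjusted p = 0.188). The thalamus markers summed to 668 to 1142 CPM in the Aro0.5 males, with a median of 1056 CPM against 551 CPM in CONF and 658 CPM in CONSC males. Their neocortex markers had a median of 178 CPM (167 to 317 CPM), against 331 CPM in CONF and 271 CPM in CONSC males. The part of these tissue differences in the values of Tsc22d3 and Hsd11b1 was not tested.

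Crh was at 1.12, 1.21, 1.25 and 1.38 CPM in Aro0.5 males and at 0.823, 1.28, 1.44 and 1.50 CPM in BPA0.5 males, while the 9 controls ranged from 1.21 to 2.49 CPM. Both low-dose groups lay at the bottom of the control range and overlapped it. The log2 difference was -0.57 ± 0.17 in Aro0.5 (SE, 95% interval -0.92 to -0.23, edgeR adjusted p = 0.136) and -0.59 ± 0.19 in BPA0.5 (SE, 95% interval -0.95 to -0.22, edgeR adjusted p = 0.431), and these groups were set against the same controls. CPF1 males were at 1.77, 2.50, 2.53 and 2.62 CPM, with 3 of 4 above every control, and their log2 difference of 0.28 ± 0.17 (SE, edgeR adjusted p = 0.997) did not pass the threshold. At the high doses Crh was at 1.30 to 2.41 CPM in Aro5 and 1.56 to 2.51 CPM in BPA5 males, with log2 differences of 0.05 ± 0.15 and 0.17 ± 0.15 (SE). Crh counts were few in these libraries. Summed neocortex markers had a median of 178 CPM in Aro0.5 and 259 CPM in BPA0.5 males (139 to 319 CPM in the latter). The medians were 331 CPM in CONF, 271 CPM in CONSC and 266 CPM in CPF1 males, and Crh was not low in the CPF1 males. The part of the few counts and of the neocortex markers in the Crh values was not tested.

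In females, treated only at the high doses, none of the 9 genes was called in Aro5, BPA5 or CPF3 (0% of 16992 genes in each), and none had an unadjusted p under 0.05, while 3.23%, 4.08% and 8.79% of all genes had one. Nr3c1 had a median of 39.4 CPM in Aro5, 36.8 CPM in BPA5 and 37.8 CPM in CPF3 females, against 37.2 CPM in the 10 female controls. Its log2 differences were -0.02 ± 0.10, -0.02 ± 0.10 and -0.01 ± 0.10 (SE), with 95% intervals within -0.22 to 0.20. The widest differences over the 9 genes were 0.26 ± 0.15 for Crhbp in Aro5 (SE, edgeR adjusted p = 0.999) and -0.29 ± 0.23 for Hsd11b1 in CPF3 females (SE, edgeR adjusted p = 0.727).

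Whether treatment acted differently in the sexes was tested as an interaction. None of the 9 genes was called for Aro5 (0.0984% of 17282 genes), BPA5 (0.0405%) or CPF3 (0.0463%). An unadjusted p under 0.05 was found for 8.92%, 2.79% and 5.6% of genes and for 1 of the 9, Nr3c1 with Aro5. The Nr3c1 response to Aro5 was lower in females than in males by -0.36 ± 0.17 on the log2 scale (SE, 95% interval -0.70 to -0.03, edgeR adjusted p = 0.515). Within the time window the interaction was -0.64 with an adjusted p of 0.0471 by edgeR's test, against 0.0471 to 0.989 over 58 alternatives. The window kept 4 Aro5 males, littermates among them. With 1 pup per litter and sex, over all times, the interaction was -0.19 (edgeR adjusted p = 0.989). The other interactions lay between -0.47 (Crh with CPF3) and 0.28 (Hsd11b1 with Aro5).

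**Figure D2:**
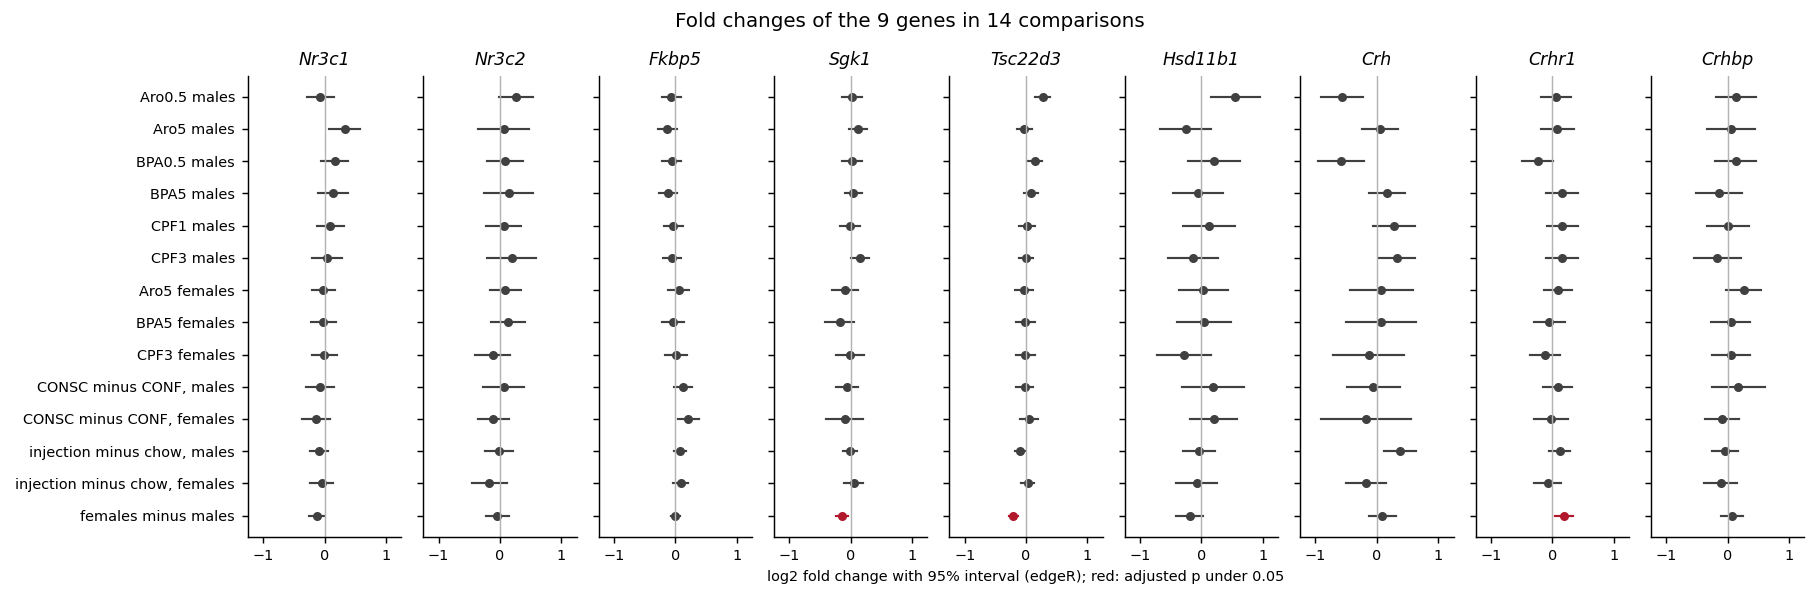
Log2 fold changes of the 9 genes with 95% intervals in 14 comparisons (edgeR), with adjusted p under 0.05 in red. Most intervals include 0, and the only values past the threshold are Sgk1, Tsc22d3 and Crhr1 in females minus males.

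Across the 18 comparisons above, the 9 genes gave 162 tests, of which 14 had an unadjusted p under 0.05 and none passed the adjusted threshold in edgeR. Of all genes, 0.988% to 18.5% had such an unadjusted p, depending on the comparison. The comparisons share pups and controls, so that the 162 tests are not independent. DESeq2 called 1, Tsc22d3 in Aro0.5 males. Apart from Tsc22d3 in Aro0.5 males, no member had CPM ranges apart from the controls of its sex in any treated group or between CONSC and CONF. Such ranges were found for 0.245% of genes in Aro5, 0.136% in BPA5, 0.184% in CPF3, 0.517% in BPA0.5 and 0.068% in CPF1 males. In females they were found for 0.0204% in Aro5, 0.122% in BPA5 and 0.184% in CPF3, and between CONSC and CONF for 0.517% in males and 0.483% in females.

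The sexes differed in 3 of the 9 genes, Tsc22d3, Sgk1 and Crhr1, when females were set against males over the 5 treatments that both received. In Aro5, BPA5 and CPF3 the spelling of library names differed along with sex, as set out below. In the same comparison 49.5% of all 17367 genes were called (54.7% had an unadjusted p under 0.05), a larger share than among the 9. Tsc22d3 was at 42.4 to 58.4 CPM in 23 females, with a median of 52.5 CPM, and at 54.6 to 76.9 CPM in 29 males, with a median of 61.1 CPM. Its mean was lower in females in 5 of 5 treatments, and the ranges did not overlap in CONF, Aro5 and BPA5, where 21%, 13.7% and 8.45% of genes showed ranges apart. The log2 difference was -0.21 ± 0.04 (SE, edgeR adjusted p = 2.13e-06).

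Sgk1 had a median of 63.8 CPM in females (42.6 to 81.9 CPM) and 71.9 CPM in males (59.0 to 90.9 CPM), was lower in females in 5 of 5 treatments and differed by -0.14 ± 0.05 on the log2 scale (SE, edgeR adjusted p = 0.0194). The Tsc22d3 and Sgk1 calls were kept with any 1 pup left out, pup 9-1x with the lowest Sgk1 value included, but the Sgk1 call was lost among pups within the time window (-0.11, adjusted p = 0.138), and the Sgk1 ranges were apart only in Aro5, where females were at 57.0 to 67.7 CPM and males at 71.0 to 81.7 CPM. Crhr1 was higher in females, with a median of 29.8 CPM (17.8 to 34.7 CPM) against 26.4 CPM (17.9 to 35.1 CPM). It was higher in 4 of 5 treatments, overlapped in all of them, and differed by 0.19 ± 0.07 on the log2 scale (SE, edgeR adjusted p = 0.0259). The Crhr1 call was lost without any 1 of CONF male N2-2y, CONF male N3-4y, CONF female N1-8x, BPA5 female 81-6x or CPF3 female 45-6x (adjusted p 0.0504 to 0.0657), and with 1 pup per litter and sex (adjusted p = 0.0526). Nr3c1 was lower in females in 5 of 5 treatments at -0.12 ± 0.06 on the log2 scale (SE, edgeR adjusted p = 0.0972), and passed the threshold without Aro5 male 108-1y (adjusted p = 0.0463) or CPF3 male 36-3y (adjusted p = 0.0446). Hsd11b1 was lower in females in 5 of 5 treatments, at a median of 13.0 against 15.2 CPM and a log2 difference of -0.19 ± 0.11 (SE, edgeR adjusted p = 0.16). Fkbp5 had a log2 difference of 0.00 with a 95% interval of -0.08 to 0.08, and Nr3c2, Crh and Crhbp had differences of -0.04 ± 0.10, 0.09 ± 0.11 and 0.08 ± 0.09 (SE), none past the threshold.

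**Figure D3:**
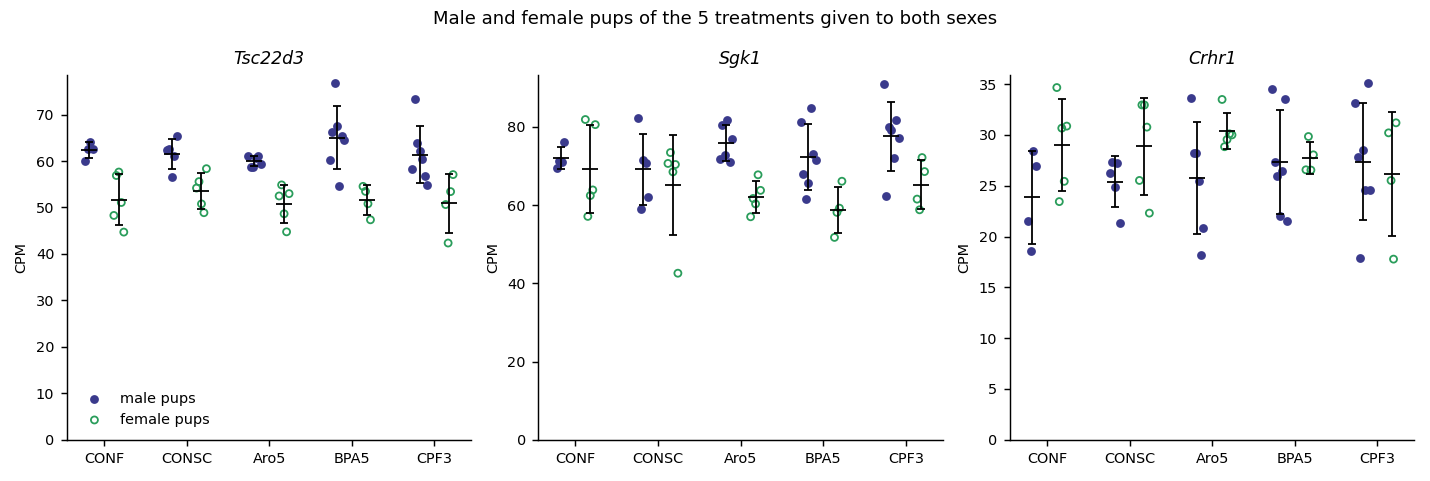
CPM of Tsc22d3, Sgk1 and Crhr1 in male (filled) and female (open) pups of the 5 treatments given to both sexes, with bars for mean and SD. Female means of Tsc22d3 and Sgk1 lie below male means in 5 of 5 treatments, and female means of Crhr1 lie above male means in 4 of 5.

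The spelling of library names also differed between the sexes. Female control names had or lacked a sign between group and pup, and the names of high-dose females, all with the sign, matched neither male spelling. Sex and name spelling can thus not be told apart in Aro5, BPA5 and CPF3. Among control libraries with a capital Y in males and the sign in females, none of the 9 genes was called between the sexes, while 1847 of 15849 genes were. Tsc22d3 then differed by -0.14 (edgeR adjusted p = 0.125), Sgk1 by -0.17 (adjusted p = 0.36) and Crhr1 by 0.11 (adjusted p = 0.632), each in the direction found over all pups and with fewer pups. The females of this set were 5, among them pup 9-1x with the lowest Sgk1 of all pups (42.6 CPM), and its part in the Sgk1 difference was not tested. Over 71 alternatives Tsc22d3 passed in 70, Sgk1 in 69 and Crhr1 in 64, with adjusted p-values of 1.22e-08 to 0.125, 0.00535 to 0.36 and 0.00909 to 0.632. Of the 71, 64 left out 1 pup each. All but the set of control libraries above kept the high-dose groups, so that these tallies cannot tell sex from name spelling. Within female controls, 237 of 16577 genes differed between the spellings, none of the 9 among them. Crhr1 was higher by 0.29 ± 0.11 (log2, SE) and Sgk1 by 0.23 ± 0.13 in libraries without the sign. Tsc22d3 was lower there, at -0.13 ± 0.06. In size, the Crhr1 and Sgk1 values exceeded those between the sexes over all pups (0.19 and -0.14), and that of Tsc22d3 did not (-0.21). Pup N4-3x had a library in each spelling, and pup 9-1x had the sign. The part of these pups in the values was not tested. Of 7 hippocampal neuron markers, 5 were higher and 0 lower in females, where 49.5% of all genes were called in either direction. Their median log2 difference was 0.48 against -0.00 over all genes. The median of their summed CPM was 544 to 608 in the female and 446 to 525 in the male groups. Other lists also held called markers, among them interneurons (3 of 6 higher, 0 lower), oligodendrocytes (2 of 5 higher, 1 lower) and blood (2 of 4 higher, 1 lower). The part of these markers in the result was not tested.

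Other genes of the pathway were taken from 4 lists. In the treatment and route comparisons none of their members was called. Of 10 receptor coregulators, 6 had an unadjusted p under 0.05 and were higher in Aro5 males (11.8% of all genes had such a p in either direction), 3 in BPA5 (9.1%) and 5 in CPF3 males (12.6%), with medians of 0.21, 0.19 and 0.20 on the log2 scale against medians of -0.00, 0.01 and 0.00 over all genes, and none passed the adjusted threshold. At the low doses the median was -0.15 in Aro0.5 males, with 1 coregulator lower at an unadjusted p under 0.05 (18.5% of all genes), and -0.08 in BPA0.5 males, with 2 lower (8.58%). Of 22 tested glucocorticoid-responsive genes, 4 were higher in injection than in chow males (5.87% of all genes) and 4 in females (8.78%) at an unadjusted p under 0.05, with medians of 0.02 and 0.07, and none was lower. In the mean of the sexes 4 were higher and 1 was lower (11.6%). Between CONSC and CONF, without a chemical, 0 of 21 were higher and 0 lower in males (median 0.0071, 0.988% of all genes). In females 0 of 22 were higher and 1 was lower (median 0.0055, 4.29%). Against controls, 5 of 21 were lower and 1 was higher in BPA0.5 males (median -0.07) and 3 were lower and 2 higher in Aro0.5 males (median -0.01) at an unadjusted p under 0.05. Of 22 tested in females, 3 were lower and none was higher in Aro5 (median -0.03, 3.23% of all genes) and in BPA5 (median -0.10, 4.08%).

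Between the sexes, 9 of the 22 glucocorticoid-responsive genes were higher in females and none was lower, with a median log2 difference of 0.12. Per1, a clock gene, was higher by 0.36 ± 0.06 (log2, SE, edgeR adjusted p = 1.45e-06). Ddit4, an inhibitor of growth signalling, was higher by 0.29 ± 0.05 (SE, adjusted p = 4.78e-06) and Hif3a by 0.70 ± 0.15 (SE, adjusted p = 6.3e-05). Tsc22d3 and Sgk1, which are also induced by glucocorticoids, lay in the opposite direction.

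Of 11 chaperones, 2 were higher and 2 lower in females. Hsp90aa1, which encodes an inducible Hsp90, was higher by 1.20 ± 0.17 (SE, edgeR adjusted p = 3.7e-08) and the phosphatase Ppp5c by 0.24 ± 0.05 (SE, adjusted p = 1.69e-05), whereas Hspa4 was at -0.15 ± 0.03 (SE, adjusted p = 5.61e-06). Of 10 coregulators, 4 were higher and 1 was lower, among the former Smarca4 at 0.17 ± 0.04 and Crebbp at 0.13 ± 0.04 (SE). Of 11 tested genes of corticosteroid metabolism and peptides, 3 were higher and none lower. They were H6pd, which supplies the cofactor of the Hsd11b1 product, at 0.40 ± 0.07 (SE, adjusted p = 2.38e-06), Pomc, the precursor of corticotropin, at 1.01 ± 0.19 (SE, adjusted p = 1.1e-05), and the second receptor Crhr2 at 0.31 ± 0.11 (SE, adjusted p = 0.0189). The share of all genes called between the sexes, 49.5%, stands beside each of these counts.

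Within groups, the receptors and their targets varied together from pup to pup. Log2 CPM of each gene was centred on its group mean, and 9 pairs were tested in each sex by permutation within groups, with adjustment over the 18 relations. Of these, 10 passed an adjusted p of 0.05 by Pearson's r and 7 by Spearman's rho, and the 3 targets did not run in parallel. Tsc22d3 was high in males in which Sgk1 was low (r = -0.705, adjusted permutation p = 0.00054, rho = -0.619, adjusted p = 0.00297, 41 pups, r = -0.668 without the 2 pups farthest from the median). In 23 females the same pair had r = -0.422 (adjusted permutation p = 0.0898, rho = -0.425, adjusted p = 0.133).

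Sgk1 and Fkbp5 were opposed in females (r = -0.667, adjusted permutation p = 0.00292, rho = -0.595, adjusted p = 0.0115) and in males (r = -0.414, adjusted permutation p = 0.0232, rho = -0.435, adjusted p = 0.0321, r = -0.587 without 2 pups). Without the 2 farthest pups r was -0.457 in females, where pup 9-1x combined a high Fkbp5 (51.6 CPM) with the lowest Sgk1 of all pups (42.6 CPM), and the adjusted permutation p was 0.062. Fkbp5 and Tsc22d3 were in parallel in males (r = 0.528, adjusted permutation p = 0.00184, rho = 0.441, adjusted p = 0.0283, r = 0.579 without 2 pups), while females gave r = 0.118 (adjusted permutation p = 0.745).

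Both receptors were opposed to Fkbp5. Nr3c1 was related to it in males (r = -0.627, adjusted permutation p = 0.00184, rho = -0.590, adjusted p = 0.00297, r = -0.614 without 2 pups) and not detectably in females (r = 0.0297, adjusted permutation p = 0.89). Nr3c2 was related to it in females (r = -0.715, adjusted permutation p = 0.00184, rho = -0.660, adjusted p = 0.0135, r = -0.614 without 2 pups). In males the relation (r = -0.423, adjusted permutation p = 0.0232, rho = -0.401, adjusted p = 0.0483) no longer passed without 2 pups (r = -0.402, adjusted permutation p = 0.102). A further 3 relations passed by r only and not without 2 pups, namely Nr3c1 with Sgk1 (r = 0.423) and with Tsc22d3 (r = -0.413) in males and Nr3c2 with Sgk1 (r = 0.563) in females, where the adjusted permutation p of rho was 0.0772, 0.0756 and 0.0634. Differences between the sexes in these correlations were not tested.

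**Figure D4:**
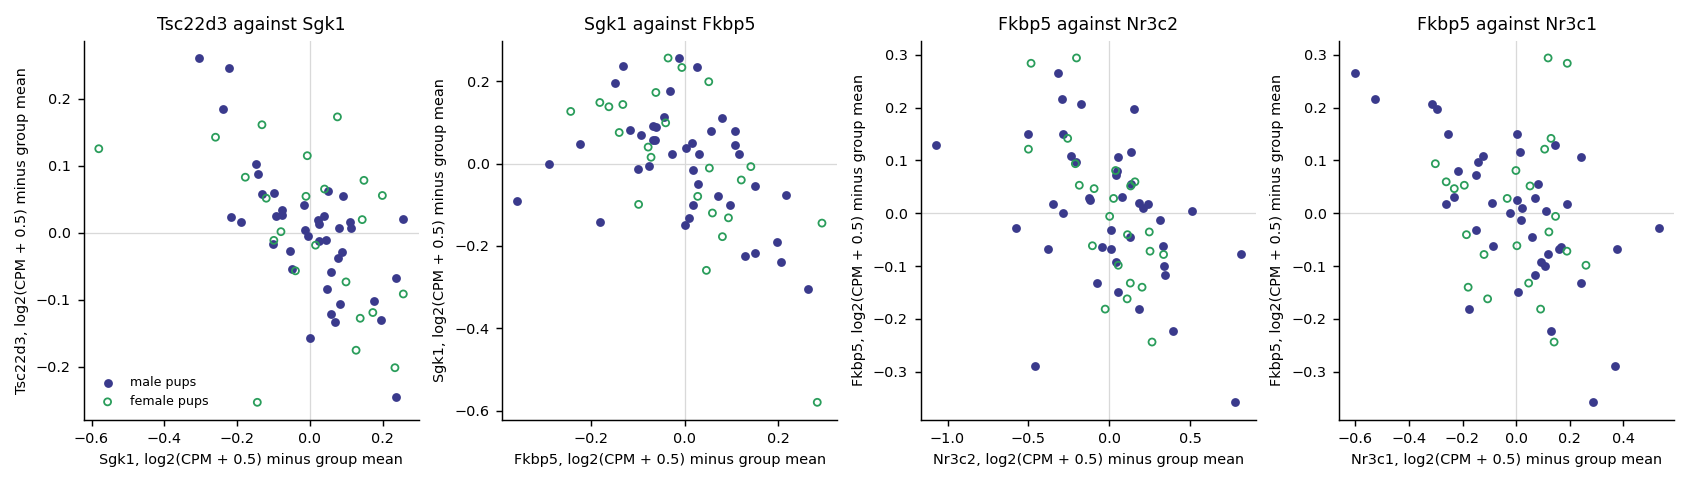
Log2(CPM + 0.5) minus the group mean for 4 pairs of genes, 1 point per pup, with 41 males filled and 23 females open. Tsc22d3 falls as Sgk1 rises, Sgk1 falls as Fkbp5 rises, and Fkbp5 is low where Nr3c2 is high in both sexes and where Nr3c1 is high in males.

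The same centred values were compared with the make-up of the tissue. The leading component of all 11822 genes with a mean of at least 5 CPM held 28.21% of the variance within groups, and 46.95% of these genes had an r of at least 0.5 in size with it. Nr3c1 followed this component closely (r = 0.733, adjusted permutation p = 0.000108, rho = 0.65, adjusted p = 0.000135, r = 0.694 without 2 pups, 64 pups in all). With the component removed, 3 of the 18 relations passed, Sgk1 with Tsc22d3 in males (r = -0.638) and Fkbp5 with Sgk1 (r = -0.678) and with Nr3c2 (r = -0.715) in females. Nr3c2 with Sgk1 in females had r = 0.568 (adjusted permutation p = 0.0501), against 0.563 before removal. In males, r was then 0.394 for Fkbp5 with Tsc22d3, -0.391 for Nr3c1 with Fkbp5, -0.338 for Nr3c2 with Fkbp5 and -0.227 for Fkbp5 with Sgk1, and 0.145 and -0.163 for Nr3c1 with Sgk1 and with Tsc22d3.

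Sgk1 followed the neocortex markers (r = 0.798, adjusted permutation p = 0.000108, rho = 0.717, adjusted p = 0.000135, r = 0.71 without the 2 farthest pups) and Tsc22d3 was opposed to them (r = -0.59, adjusted permutation p = 0.000108, rho = -0.629, adjusted p = 0.000216, r = -0.562 without 2 pups). Crhr1 (r = 0.656, rho = 0.687, r = 0.666 without 2 pups) and Crh (r = 0.6, rho = 0.517, r = 0.399 without 2 pups) also followed the neocortex markers, with adjusted permutation p-values of 0.000108 and 0.000826. Nr3c2 followed the markers of hippocampal neurons (r = 0.758, rho = 0.732, adjusted permutation p = 0.000108, r = 0.744 without 2 pups), and Hsd11b1 those of thalamus (r = 0.726, rho = 0.736, adjusted permutation p = 0.000108, r = 0.676 without 2 pups).

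Astrocyte markers were related to 7 of the 9 genes, with Crhbp (r = 0.567, rho = 0.506), Nr3c2 (r = 0.564, rho = 0.566) and Nr3c1 (r = 0.55, rho = 0.516) rising with them and Fkbp5 opposed (r = -0.598, rho = -0.589), each with an adjusted permutation p of at most 0.000826 for r. Without 2 pups these r were 0.518, 0.533, 0.484 and -0.52. The share of all genes related to the astrocyte markers was not determined, so that 7 of 9 cannot be read as particular to these genes. Markers of oligodendrocytes and blood and the total count were related to none of the 9 at an adjusted p of 0.05. These 108 relations were adjusted together, and 0.000108 is the adjusted value of the smallest p that 100000 permutations can give (1e-05), which several relations shared. The part of the tissue make-up in the correlations between the genes was not tested.

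**Figure D5:**
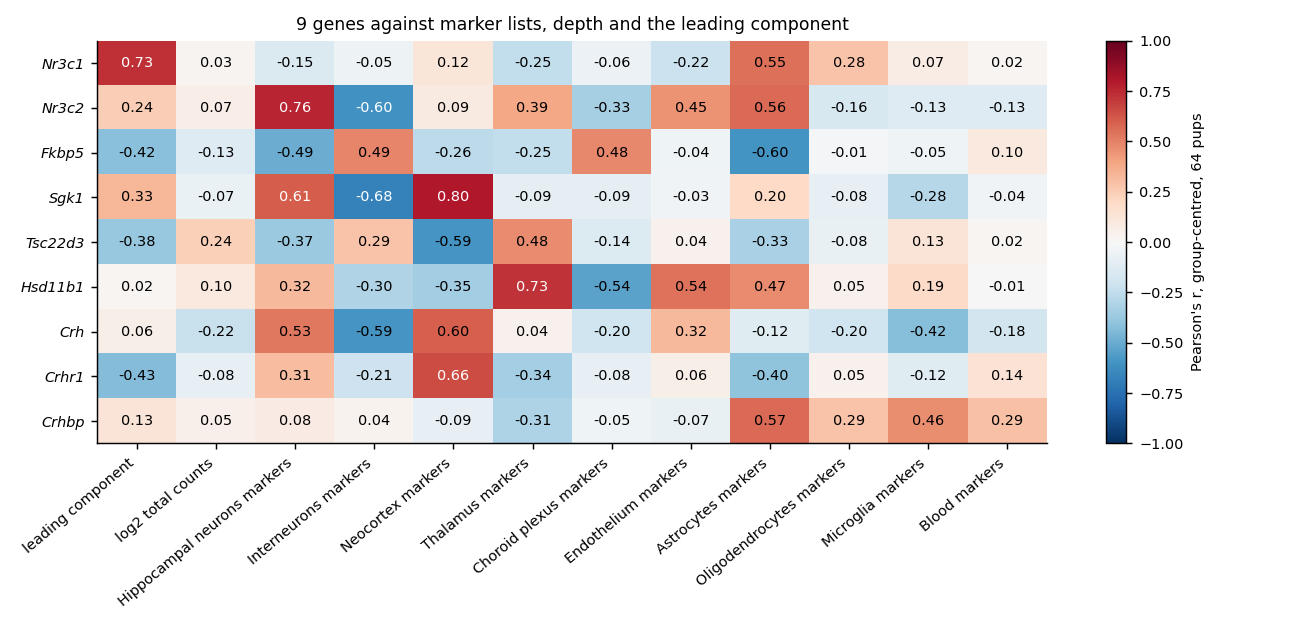
Pearson's r over 64 pups, each value centred on its group mean, of the 9 genes (rows) with the leading component, the log2 total count and 10 summed marker lists (columns). Blocks of strong colour lie at Sgk1 with neocortex (0.80), Nr3c2 with hippocampal neurons (0.76), Nr3c1 with the leading component (0.73) and Hsd11b1 with thalamus (0.73).

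Time of dissection was examined because corticosterone and its targets vary over the day. Pups were dissected between 9.45 and 15.45 h. Female CONF pup N4-3x was left out here, because its 2 libraries carry different times (12.09 and 11.55 h), and none of the 18 relations of the 9 genes with time passed adjustment. In 41 males Crhr1 had the largest r (0.331, rho = 0.29, adjusted permutation p = 0.586, r = 0.211 without 2 pups), and Fkbp5 and Sgk1 were at 0.244 and -0.255 (adjusted permutation p = 0.586 for both). In 22 females Crh had the largest r (-0.347, rho = -0.373, adjusted permutation p = 0.586, r = -0.33 without 2 pups).

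Among 11822 genes, those whose centred levels were most like 8 of the members over 64 pups are given as a description. They were Rmnd5a (r = 0.877) for Nr3c1, Raver2 (0.853) for Nr3c2, Fblim1 (0.787) for Fkbp5, Osbpl1a (0.877) for Sgk1 and Rasgef1c (0.762) for Tsc22d3. For Hsd11b1 it was Slc24a3 (0.881), for Crh Clmp (0.818) and for Crhr1 Grip2 (0.898). The same pups, libraries and tissue pieces underlie both genes of each pair.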

How the data were processed

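Per the labels, STAR, featureCounts, kallisto and build Rnor_6.0 were used by the authors, whose deposited files hold raw counts per gene (versions, strand setting and handling of shared reads: not given in the sources used here). The labels name a NovaSeq with single-end 100 bp reads, the study's methods a HiSeq. Counts of 2 libraries of 1 pup were summed. CPM were computed from the deposited counts. edgeR 4.0.16 (R 4.3.3) used TMM, filterByExpr (by group) and quasi-likelihood F tests, with p adjusted over all genes tested after Benjamini and Hochberg (threshold 0.05). Separate fits covered males at high doses, males at low doses, females, CONSC against CONF per sex, all 13 groups (route, sex) and sex by treatment. CONF and CONSC were combined as controls, as in the study. SE is the log2 fold change divided by the square root of F, and intervals are 1.96 SE. All 9 genes passed the filter in every fit. Correlations used log2(CPM + 0.5) centred on groups, with 100000 two-sided permutations within groups (Python 3.11.15, numpy 2.4.6, pandas 2.3.3, scipy 1.17.1, matplotlib 3.10.9).

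The members and lists were chosen with earlier results of these data known. All 9 genes are covered in every comparison, by name or within a range or count, and of each list at most the 3 called genes with the smallest adjusted p. For likeness the gene with the highest r is given of the 3 looked up. Some genes that these rules select are not reported here. The scripts were tested on simulated counts. Alternatives were DESeq2 1.42.0 and its size factors, no filter, the time window, 1 pup per litter and sex, controls of 1 route, library name spelling, each pup left out, and a replicate block for litter in limma 3.58.1. Litter is given by the pup labels, and the correlation of pups of a litter was -0.0173 over 64 pups. Of 26 glucocorticoid-responsive genes listed, 24 were in the files. P-values measure the spread between pups, some of which share a litter.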

Additional observations from a re-analysis of the deposited data

Results flagged for a closer look

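In 117 groups of 4 to 7 pups (9 genes in 13 groups), 7 held 1 pup far from the others of its group, by a criterion that chance meets in about 1 in 20 groups. Female CONSC pup 9-1x was low in Nr3c2 (17.3 CPM, against 26.4 to 26.8 CPM in the other pups) and in Sgk1 (42.6 CPM, against 68.5 to 73.4 CPM), and its summed neocortex markers (81.1 CPM) were the lowest of all pups. Male CONF pup N4-7y was low in Nr3c1 (33.5 CPM, against 42.3 to 43.4 CPM). Male BPA0.5 pup 73-4y was high in Fkbp5 (46.3 CPM, against 37.6 to 38.9 CPM). Male CPF1 pup 21-1y was low in Crh (1.77 CPM, against 2.50 to 2.62 CPM). Female Aro5 pup 115-13x was high in Crhr1 (33.5 CPM, against 28.8 to 30.1 CPM), and male BPA5 pup 91-6y was high in Crhbp (5.10 CPM, against 2.80 to 3.57 CPM). No sex by treatment interaction of the 9 genes passed the threshold over all pups.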

How the results depend on the processing

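Counts of called members were 0 in all comparisons but that of the sexes, in designs where few genes passed, so that their staying at 0 under most alternatives says little. Within the time window, Nr3c1 was the 1 member called in Aro5 males (818 genes called in all, against 32 over all pups) and the 1 called in the sex by Aro5 interaction (609 genes, against 17). The window kept 4 Aro5 males, littermates among them. In Aro0.5 males DESeq2 called 1 member (246 genes in all, against 20 by edgeR), and the count ranged from 0 to 1 with each pup left out, with 322 genes called without CONSC male 8-4y. For the sexes it ranged from 2 to 4 with each pup left out and was 0 in control libraries of 1 name spelling in each sex, an alternative chosen after seeing the data. Of the 18 relations between members, 5 passed without the 2 pups farthest from the median and 3 with the leading component removed (chosen after seeing the data), against 10. The route difference of Crh in males reversed to -0.0589 with controls only in the fit of all pups (edgeR adjusted p = 1). The cause of these changes was not tested. Of 151 values of single genes or relations under other settings, 130 kept direction and side of the threshold, 17 lost it, 3 gained it and 1 reversed. The Sgk1 difference between the sexes was -0.11 within the time window (adjusted p = 0.138), and that of Crhr1 was 0.17 with 1 pup per litter and sex (adjusted p = 0.0526). With the litter as a replicate block, Tsc22d3 (adjusted p = 2.62e-06), Sgk1 (0.0169) and Crhr1 (0.0237) kept their calls between the sexes and no other call changed; the correlation within litters was -0.0173 over 13 groups and -0.0061 in the sex by treatment fit. Crh and Crhbp had at most 168 and 333 counts per pup, which limits their precision most.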
